A study of Mus musculus with 6 samples.

Results

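Heat shock proteins and their partner chaperones were followed in the auditory nerve of young and old mice. Genes were taken by symbol (names beginning Hspa, Hspb, Hspd, Hspe or Hsph, Hsp90, Dnaj, Cct or Bag followed by the family number, plus Cryab), and a mean normalised read count of at least 10 over the 6 libraries was required. The symbols of 86 genes among 17607 matched, and 81 reached that mean. They comprised 14 Hsp70, 3 Hsp90, 8 small heat shock protein, 2 mitochondrial chaperonin, 40 Hsp40, 8 CCT and 6 Bag genes. The 5 left out (Dnajc22, Hspb9, Cct8l1, Dnajb7 and Dnajb13) had means of 2.86 to 6.50, and the lowest inside was Cct6b at 10.96, followed by Hspb3 at 21.9.

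Total RNA came from nerves dissected out of the cochleas of CBA/CaJ mice, an inbred strain that keeps its hearing well into adult life, with both cochleas of a mouse combined in 1 library. The young group held 3 mice aged 2 months and the old group 3 mice aged 2.5 years, and no treatment or genetic change is given for either. The dissected nerve holds spiral ganglion neurons, Schwann cells, satellite glia, macrophages, blood vessels and adjoining bone. Recovered reads per library ran from 34587979 to 40841478. Neuronal and Schwann cell markers were abundant in all 6 libraries (the neuronal gene Snap25 reached at least 62570.0 normalised reads in each). Of the 12 striated muscle genes listed, 7 were too low to test.

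Chaperones bind proteins that are unfolded or not yet folded and keep them from clumping. Hsp70 proteins do this in cycles driven by ATP. Hsp40 (J-domain) proteins hand them clients and trigger ATP hydrolysis, and exchange factors such as the Hsp110 and Bag proteins release the spent nucleotide. Hsp90 finishes the folding of kinases and steroid receptors, small heat shock proteins hold unfolding proteins without ATP, and the CCT ring folds actin and tubulin. Heat shock factor 1 switches on many of these genes when unfolded protein builds up in the cytosol, and a separate unfolded protein response serves the endoplasmic reticulum (ER). Neurons depend on these systems because their proteins must last over long axons, and several small heat shock and J-domain genes are mutated in inherited neuropathies.

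The promoters of the genes that carry the best known stress response motifs are shown first, because the results turn on whether these genes moved together. RefSeq promoter windows (250 bases before to 50 after a gene start, GRCm38.p6) were found for 65 of the 81 genes. Genes without a window, among them Hspa8, Hspa9, Hspa13, Hsp90aa1, Hsp90ab1, Hspb2 and Cryab, were not searched. The ER stress element was searched as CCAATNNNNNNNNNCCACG on both strands. It stood in 3 of the 65 (4.62%), Hspa5, Dnajc3 and Hsp90b1, and in 0.137% of 27025 genes with a window. The capitals mark it in the 250 bases before each gene start, written 5′ to 3′ on the gene's own strand. Hsp90b1 held a match on each strand.
Hspa5, chr2:34771840-34772089 (plus strand): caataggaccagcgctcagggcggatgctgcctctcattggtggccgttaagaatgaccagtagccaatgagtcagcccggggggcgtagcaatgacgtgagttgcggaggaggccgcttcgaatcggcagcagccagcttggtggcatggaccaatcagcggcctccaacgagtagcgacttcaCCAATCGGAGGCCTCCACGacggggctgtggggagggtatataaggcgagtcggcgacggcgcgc
Dnajc3, chr14:118937682-118937931 (plus strand): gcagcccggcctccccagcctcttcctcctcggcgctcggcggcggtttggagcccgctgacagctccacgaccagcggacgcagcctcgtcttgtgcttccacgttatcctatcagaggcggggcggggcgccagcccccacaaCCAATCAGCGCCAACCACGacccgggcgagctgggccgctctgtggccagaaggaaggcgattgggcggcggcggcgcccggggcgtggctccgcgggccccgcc
Hsp90b1, chr10:86705445-86705694 (minus strand): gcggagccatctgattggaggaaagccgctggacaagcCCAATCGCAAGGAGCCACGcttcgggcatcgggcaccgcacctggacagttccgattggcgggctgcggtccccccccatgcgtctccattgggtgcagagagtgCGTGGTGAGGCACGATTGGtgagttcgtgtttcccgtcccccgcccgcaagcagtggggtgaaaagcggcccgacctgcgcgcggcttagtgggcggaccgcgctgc

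The heat shock element was searched as 3 alternating units, GAANNTTCNNGAA, on both strands. It stood in 4 of the 65 genes (6.15%), Hsph1, Dnajb6, Hspd1 and Hspe1, and in 0.662% of the 27025. Hspd1 and Hspe1 start from either side of 1 stretch, which holds overlapping matches. Windows of 30 bases follow, with the matches in capitals. A shorter form with 2 units stood in 19 of the 65 (29.2%) and in 17% of all genes, and those 19 included Hspa1a, Hspa1b, Bag3, Hspb1, Hspb6 and Hspb8. A match describes letters and not binding.
Hsph1, chr5:149636279-149636308 (minus strand): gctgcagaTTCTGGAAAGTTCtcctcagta
Dnajb6, chr5:29735844-29735873 (plus strand): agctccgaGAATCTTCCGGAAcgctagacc
Hspd1, chr1:55088053-55088082 (minus strand): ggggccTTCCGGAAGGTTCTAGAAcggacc

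The comparison asked which chaperone transcripts differ between young and old nerves. The 3 Hsp110-type exchange factors (1.34- to 1.57-fold), Bag3, Bag6 and 10 of 40 J-domain (Hsp40) genes were lower in old nerves. Higher were 4 small heat shock proteins (1.27- to 1.69-fold), the ER chaperone Hspa5, 8 Hsp40 genes (among them Dnajc3 of the ER), and 3 CCT subunits (1.14- to 1.19-fold). The classical inducible genes Hspa1a, Hspa1b and Hsp90aa1 did not pass the test in either direction. All 81 genes entered the test, limma on log2(value + 1) with p-values adjusted over 15882 genes and a threshold of 0.05. Of them 34 passed, 17 higher and 17 lower. Over all tested genes 34.6% passed, 15.9% higher and 18.7% lower, so the share among the chaperones (42.0%) was near that of the table as a whole. The median log2 fold change (old minus young) was 0.07 for the chaperones and -0.00 for all tested genes.

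The 3 old libraries all lay above the 3 young ones in 29 of the 81 genes and all below in 26. Over all tested genes the groups did not overlap in 51.8% (25.5% above, 26.3% below). An exact permutation test of 3 against 3 mice cannot go below p = 0.1, so the adjusted p-values rest on limma's model. Leaving out single libraries changed the counts. Without young 1 there were 6 higher and 13 lower (all tested genes 9.71% and 12.7%), without young 2 there were 4 and 9 (7.36% and 9.1%), and without young 3 there were 4 and 10 (8.96% and 10.6%). Without old 1 there were 7 and 12 (9.77% and 13.8%), without old 2 there were 8 and 13 (11.4% and 14.4%), and without old 3 there were 18 and 17 (17.3% and 21.2%). Bag3, Bag6, Hspa4, Hspa4l, Hsph1, Dnajb14, Dnajc16, Dnajc28, Cryab, Dnajc3 and Dnajc4 passed whichever 1 of the 6 libraries was left out. With upper-quartile scaling in place of the deposited scaling, 27 were higher and 12 lower (all tested genes 21.7% and 14.7%), and the median moved from 0.07 to 0.16.

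**Figure D1:**
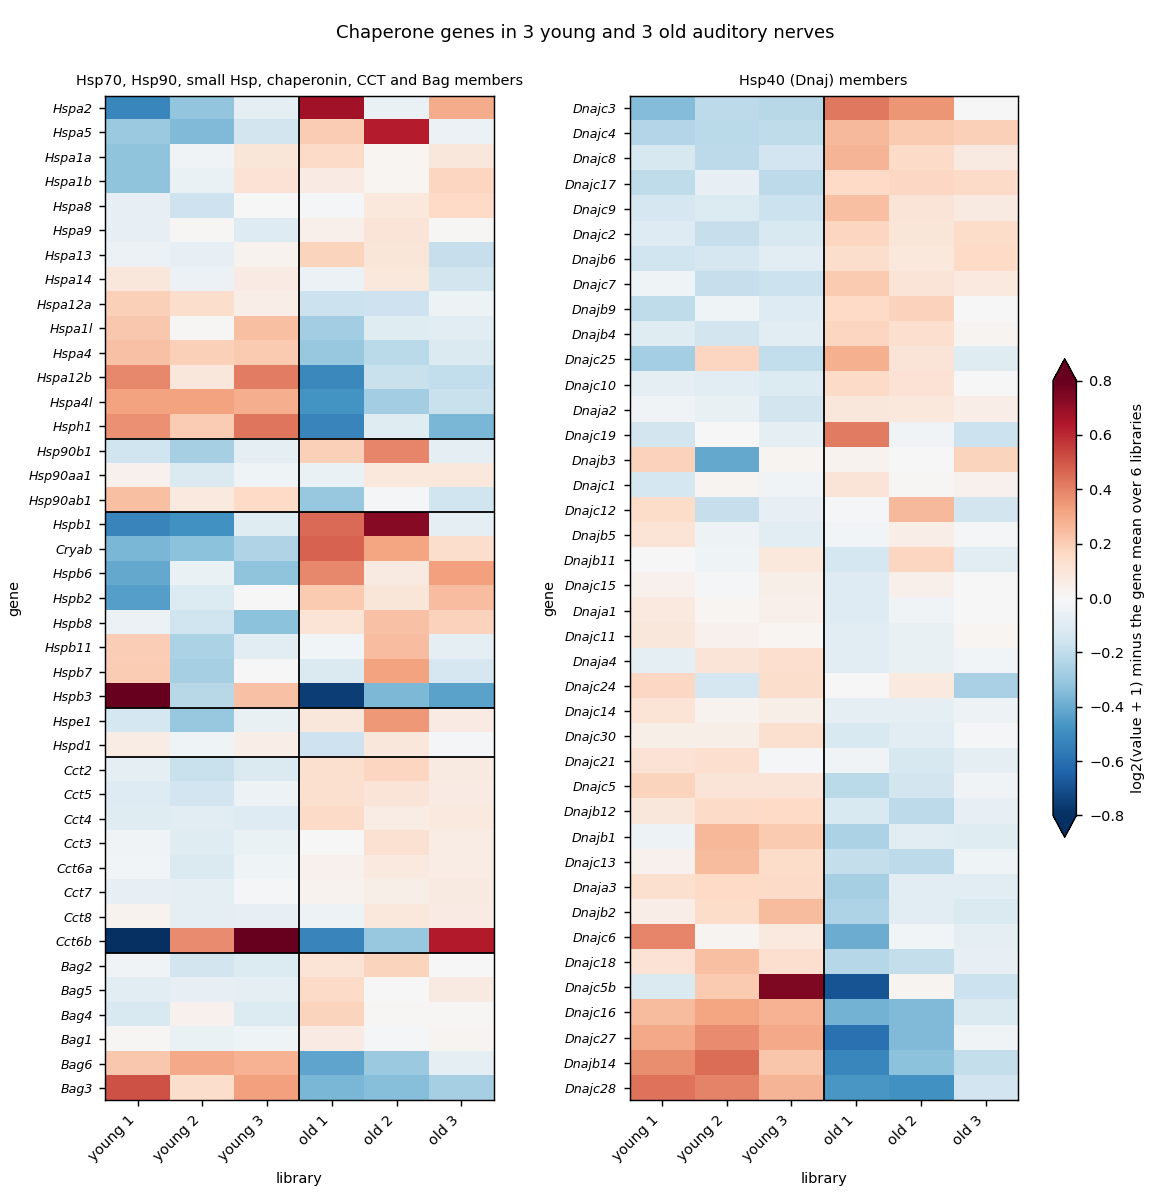
Heat map of the 81 chaperone genes (rows, grouped by family) in the 6 libraries (columns). Colour is log2(value + 1) minus the gene's mean over the libraries, from blue (low) to red (high). Hspa4l, Bag3 and Dnajb14 are red in the 3 young and blue in the 3 old columns, and Cryab and Dnajc4 show the opposite.

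Values below are normalised read counts in libraries 1, 2 and 3 of a group, in that order, and means are given ± SD with n = 3. Log2 fold changes are old minus young ± SE, and positions are those of the mm10 build, spanning the whole gene. Neurons express many of these genes, so the levels of 14 neuronal markers are given first. Their summed value was 405852 to 441462 in young and 241913 to 359103 in old libraries, and 5 were lower with none higher. Macrophage markers moved the other way, with 13 of 14 higher and sums of 6119 to 8096 in young and 16391 to 24322 in old libraries. No marker of either list was at 0. Bone markers had 8 of 12 lower and none higher (sums 23257 to 29140.5 in young and 7690 to 13412 in old libraries), and 0 of 5 erythroid genes passed in limma (4 had an unadjusted p under 0.05, 3 passed in edgeR and 4 of 6 in DESeq2). In whole tissue, fewer cells of a type and less RNA per cell cannot be told apart. The part of these cell types in the results below was not tested.

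Among the Hsp70 genes 2 rose and 5 fell, and all 3 members of the Hsp110 branch were among the falls. These proteins are nucleotide exchange factors for Hsp70 and help it pull apart aggregates. Hspa4l (chr3:40745613-40790365) had 8691, 8696 and 8532 in the young libraries against 4997, 5733 and 6159 in the old ones. Every old library lay far below the young ones, which differed little among themselves, and the mean fell 1.53-fold (log2 fold change -0.62 ± 0.09 at an adjusted p of 0.00538). Hsph1, the heat-inducible member that carries the heat shock element shown above (chr5:149616845-149636336), had 7697, 6899.6 and 8044 in the young and 4144, 5603 and 4636 in the old libraries. Old 1 was lowest, the groups did not overlap, and the mean fell from 7547 ± 587 to 4794 ± 742 (log2 fold change -0.66 ± 0.12 at an adjusted p of 0.00832). Hspa4 (chr11:53259814-53300479), the most abundant of the branch per kilobase of coding sequence (5781 in young nerves against 3437 for Hspa4l and 2932 for Hsph1), had 14862, 14376 and 14568 in the young and 10230.1, 10888 and 11669 in the old libraries. Its groups did not overlap either (log2 fold change -0.42 ± 0.07 at an adjusted p of 0.00786). All 3 passed whichever library was left out, and also after trends with transcript length and GC content had been removed from each library (adjusted p = 0.0205 for Hspa4l, 0.0132 for Hsph1 and 0.02 for Hspa4).

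The other Hsp70 falls were the distant relatives Hspa12a and Hspa12b. Hspa12b, known from endothelial cells, fell from 650.0 ± 77 to 430.4 ± 54.2 (log2 fold change -0.59 ± 0.14 at an adjusted p of 0.0171). Its adjusted p was 0.0552 without young 1 and 0.0656 without young 3. Hspa12a, with the higher level per kilobase of coding sequence (9661 against 316 in young nerves), fell from 19564 ± 923 to 16409.8 ± 837 (log2 fold change -0.25 ± 0.08 at an adjusted p of 0.0416), and its adjusted p was 0.0803 to 0.134 without each of young 1, young 2, young 3, old 1 and old 2.

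Hspa8, the constitutive cytosolic Hsc70 and the most abundant Hsp70 per kilobase of coding sequence (14148 in young and 15776 in old nerves), had 27628, 25738 and 28889 in the young and 28762, 30717 and 32243 in the old libraries. The groups overlapped and the difference did not pass (log2 fold change 0.16 ± 0.09 at an adjusted p of 0.211). Hspa9, its mitochondrial counterpart, was at 14249 ± 574 in young and 15324 ± 509.6 in old nerves (adjusted p = 0.275). Hspa13, of the ER, and Hspa14, which works at the ribosome, did not pass (log2 fold changes 0.06 and -0.07), nor did Hspa1l at -0.31 (adjusted p = 0.0852). Hspa2, first known from male germ cells, had 899.8, 1039 and 1221 in the young and 2058, 1242 and 1584 in the old libraries. Old 1 was highest, and old 2 stood barely above young 3. It rose 1.55-fold (log2 fold change 0.61 ± 0.19 at an adjusted p of 0.0463), with an adjusted p of 0.0601 to 0.127 without each of young 1, young 2, young 3, old 1 and old 3.

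The inducible pair Hspa1a (chr17:34969359-34972156) and Hspa1b (chr17:34956429-34959238) encode nearly the same Hsp70 protein, so the split of reads between them is uncertain. Hspa1a had 563, 690.1 and 753 in the young and 783, 712 and 752 in the old libraries. Hspa1b had 374, 452 and 509 in the young and 491, 474 and 528 in the old libraries. In both genes young 1 was lowest and the groups overlapped, and neither passed (log2 fold change 0.17 ± 0.12 at an adjusted p of 0.301 for Hspa1a, and log2 fold change 0.17 ± 0.13 at an adjusted p of 0.345 for Hspa1b).

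**Figure D2:**
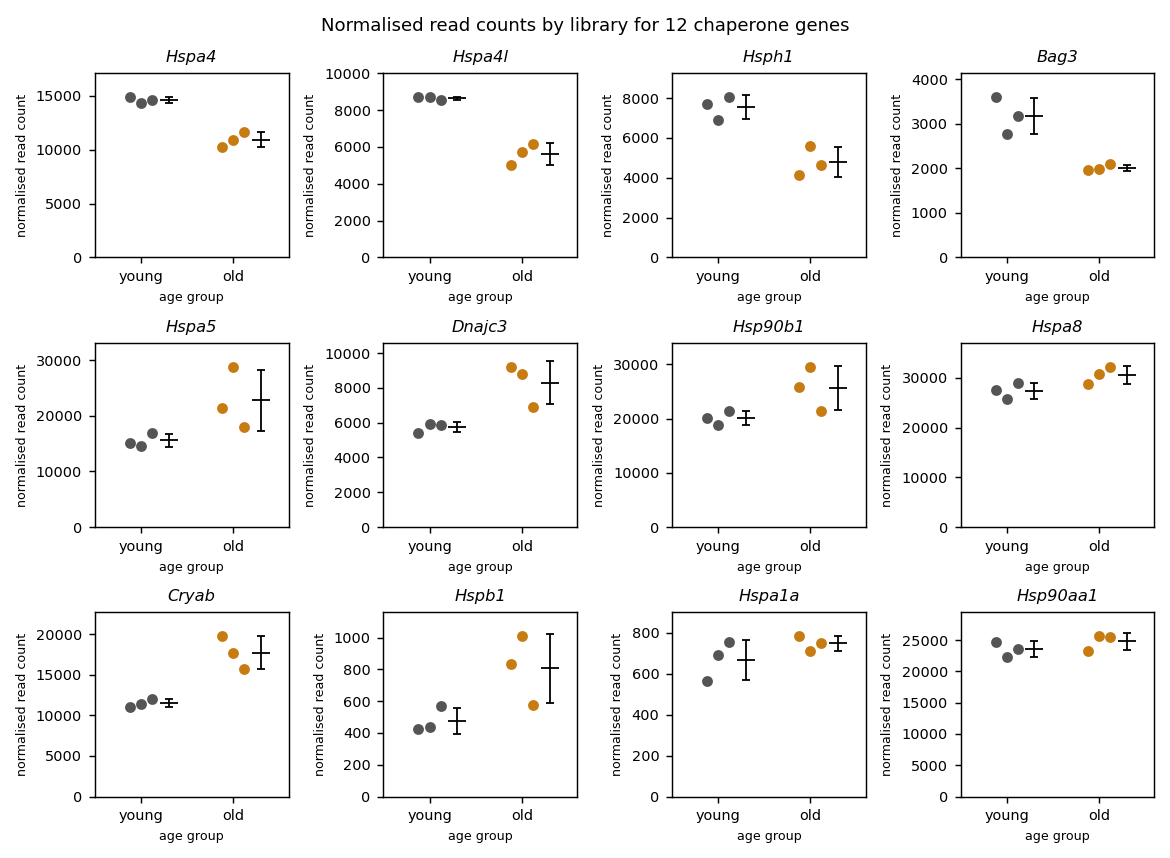
Normalised read counts (vertical axes, starting at 0) of 12 chaperone genes in the 3 young (grey) and 3 old (orange) libraries, with the mean and SD beside the points. The points of Hspa4, Hspa4l, Hsph1 and Bag3 are lower in all old libraries, those of Hspa5, Dnajc3 and Cryab higher, and those of Hspa8, Hspa1a and Hsp90aa1 overlap.

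Of the 6 Bag genes, which couple Hsp70 to release, degradation or survival signals, 2 fell and none rose. Bag3 (chr7:128523583-128546979), which pairs with Hspb8 to send aggregates to autophagy, had 3600.1, 2783 and 3168 in the young libraries against 1957, 1989.8 and 2098 in the old ones. The old libraries lay close together below all young ones, and the mean fell 1.58-fold, from 3184 ± 409 to 2015 ± 73.6 (log2 fold change -0.65 ± 0.10 at an adjusted p of 0.00607). Bag6 (chr17:35135178-35147322), which shields newly made membrane proteins and steers faulty ones to the proteasome, had 7726, 8226 and 8094 in the young and 4969, 5429.6 and 6315 in the old libraries. It fell without overlap (log2 fold change -0.53 ± 0.10 at an adjusted p of 0.00822), and its adjusted p was 0.0862 once length and GC trends had been removed, where that of Bag3 was 0.0106. Bag1, the highest of the group per kilobase of coding sequence (4710.5 in young and 4889 in old nerves), did not pass (log2 fold change 0.05 ± 0.06 at an adjusted p of 0.499). The log2 fold changes of Bag2, Bag4 and Bag5 were 0.19, 0.13 and 0.15, with adjusted p-values of 0.244, 0.248 and 0.1.

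In limma 0 of the 3 Hsp90 genes passed, with unadjusted p-values of 0.0283 for Hsp90ab1 and 0.0315 for Hsp90b1, and DESeq2 called both. Hsp90ab1, the constitutive cytosolic form and the gene with the highest level per kilobase of coding sequence in its family (28045 in young and 22521 in old nerves), had 64350.2, 57460.4 and 60930.4 in the young and 44138, 53909.7 and 48698 in the old libraries. All old libraries lay below the young ones, yet the adjusted p was 0.0711 (log2 fold change -0.32 ± 0.12). It passed in DESeq2 (adjusted p = 0.00867) and after length and GC trends had been removed (0.0333). Hsp90aa1, the inducible cytosolic form (chr12:110691036-110696395), had 24749.6, 22333 and 23608 in the young and 23244, 25593 and 25558 in the old libraries. Its groups overlapped (log2 fold change 0.07 ± 0.08 at an adjusted p of 0.526). Hsp90b1, the ER form, had 20171, 18742 and 21352 in the young and 25802, 29543 and 21467 in the old libraries. Old 3 barely exceeded young 3, and the adjusted p of 0.0769 (log2 fold change 0.34 ± 0.13) became 0.0127 without old 3 and 0.0276 in DESeq2.

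Proteins that serve Hsp70 and Hsp90 outside these families were taken as a list of 21, of which 20 were tested. In it 1 gene was higher and 2 were lower, with a median log2 fold change of 0.01. Fkbp5, a prolyl isomerase of steroid receptor complexes that glucocorticoids induce, rose from 1485 ± 280.2 to 2655 ± 788 (log2 fold change 0.81 ± 0.23 at an adjusted p of 0.0312). Its adjusted p was 0.0605 to 0.101 without each of young 1, young 3, old 1 and old 3. Stip1, which links Hsp70 to Hsp90, fell from 8828 ± 437 to 6750.1 ± 794 (log2 fold change -0.39 ± 0.10 at an adjusted p of 0.0218), and the phosphatase Ppp5c, which binds Hsp90, fell from 4266 ± 74.7 to 3361 ± 421 (log2 fold change -0.35 ± 0.10 at an adjusted p of 0.0285). The adjusted p of Stip1 was 0.0547 to 0.0806 without each young library, and that of Ppp5c was 0.0615 to 0.0834 without each young library and old 2.

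Small heat shock proteins gave 4 rises and no fall among 8 genes (15.9% and 18.7% over all tested genes). In 5 of the genes all old libraries were above all young ones (25.5% over all tested genes). The summed value of the 8 genes was 15410 to 16030 in young and 21068 to 25170 in old libraries, and most of it came from Cryab. Cryab (chr9:50751325-50756635), alpha B-crystallin, had 11038, 11347 and 12034 in the young libraries against 19718, 17709 and 15707 in the old ones. All old libraries were higher, and old 1 was the highest. The mean rose 1.54-fold, from 11473 ± 509.6 to 17711 ± 2006 (log2 fold change 0.62 ± 0.10 at an adjusted p of 0.00652). Per kilobase of coding sequence it was the highest of its family, at 21853 in young and 33736 in old nerves. Its adjusted p was 0.0572 once length and GC trends had been removed (log2 fold change 0.29). Schwann cells are known to make Cryab, and their markers had 1 of 11 higher and 4 lower, and their sums overlapped (375315 to 423937 in young and 373327 to 427084 in old libraries). Of the 9 markers of satellite and nonmyelinating glia, 1 was higher and 4 were lower, none was at 0, and their sums also overlapped (119493 to 145936 in young and 124028 to 141773 in old libraries). The 1 that rose was Gfap, a glial intermediate filament protein, with 15782, 9882 and 11725 in the young and 26859, 35071 and 25119 in the old libraries. All old libraries were higher there (2.33-fold, log2 fold change 1.23 ± 0.19 at an adjusted p of 0.00657). The 4 that fell were Ngfr (log2 fold change -1.15), L1cam (-0.85), Cdh2 (-0.68) and Sox10 (-0.48). All old libraries were higher for Gfap and for Cryab, and the same held for 25.5% of all tested genes. The part of glial cells in the Cryab rise was not tested.

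Hspb1 (chr5:135887919-135889563), or Hsp27, is mutated in a form of Charcot-Marie-Tooth neuropathy. It had 423, 435 and 570.4 in the young and 836, 1008 and 577 in the old libraries. Old 3 stood only just above young 3, while old 1 and old 2 were well above every young library. Hspb1 rose 1.69-fold (log2 fold change 0.74 ± 0.22 at an adjusted p of 0.037), and its adjusted p was 0.091 to 0.113 without each of young 1, young 2, old 1 and old 2. Hspb6, or Hsp20, known from muscle, rose from 424 ± 56.5 to 609 ± 67.6 (log2 fold change 0.52 ± 0.14 at an adjusted p of 0.0239), and the adjusted p was 0.0715 to 0.0799 without each of young 1, young 3 and old 1. Hspb8, another gene of inherited motor neuropathy and the partner of Bag3, rose from 2824 ± 274 to 3599 ± 154 (log2 fold change 0.35 ± 0.09 at an adjusted p of 0.0194). Without each of young 2, young 3 and old 2 its adjusted p was 0.0567 to 0.064. None of the 4 rises passed once length and GC trends had been removed (Hspb1 0.0859, Hspb6 0.19, Hspb8 0.184), and all kept a positive log2 fold change there.

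The remaining small heat shock genes did not pass. Hspb2 was at 241 ± 36.5 in young and 309 ± 16.3 in old nerves (adjusted p = 0.0882). Hspb7 and Hspb3, both best known from muscle, had few reads, and Hspb3 gave 55.5, 15.7 and 22 in the young and 10.6, 14.2 and 13.5 in the old libraries. Young 1 stood apart there, and the log2 fold change was -1.03 ± 0.49 (adjusted p = 0.144). Hspb7 had a log2 fold change of 0.05. Hspb11, a subunit of the transport system of cilia rather than a classical chaperone, was at 0.10 (adjusted p = 0.696). Smooth muscle and pericyte markers summed to 15030.0 to 18258 in young and 12573 to 13951 in old libraries, with 2 of 7 lower and none higher. The 5 tested striated muscle markers gave no call.

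The largest family, Hsp40, had 8 rises and 10 falls among 40 genes. By type there were 1 fall in 4 Dnaja genes, 2 rises and 3 falls in 10 Dnajb genes, and 6 rises and 6 falls in 26 Dnajc genes. The summed value of the family was 114935 to 116218 in young and 108252 to 111190 in old libraries. Without young 2 there were 2 rises and 3 falls, without young 3 there were 2 and 5, and without young 1 there were 4 and 8. They numbered 4 and 6 without old 1, 5 and 7 without old 2, and 9 and 10 without old 3.

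Dnajb14 (chr3:137867675-137908931), which helps remove faulty membrane proteins, had 1262, 1333 and 1139 in the young libraries against 681, 779 and 856 in the old ones. All old libraries were below all young ones, and the mean fell 1.61-fold (log2 fold change -0.69 ± 0.11 at an adjusted p of 0.00657). Dnajc16 (chr4:141761998-141790644) had 2147, 2247 and 2186 in the young and 1388, 1413 and 1661 in the old libraries. Old 3 was the highest of the old libraries and still far below the young range (log2 fold change -0.56 ± 0.09 at an adjusted p of 0.00598). Dnajb12, the close relative of Dnajb14, fell from 1481 ± 38.2 to 1233 ± 62.3 (log2 fold change -0.26 ± 0.07 at an adjusted p of 0.0263), and Dnajc18 fell from 6833 ± 314 to 5454 ± 323 (log2 fold change -0.33 ± 0.07 at an adjusted p of 0.014). The adjusted p of Dnajb12 was 0.0531 to 0.0969 without each library other than old 3, and that of Dnajc18 was 0.06 without young 2.

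Dnajc28 (chr16:91614257-91618999) had the lowest log2 fold change of the falls. It had 359, 351 and 322 in the young and 192, 189.8 and 239 in the old libraries, so the groups were well apart (log2 fold change -0.74 ± 0.14 at an adjusted p of 0.00886). Dnajc27 (chr12:4082574-4110612), a J-domain protein fused to a small GTPase of the Rab type, had 7451, 7853 and 7437 in the young and 3989, 4726 and 5922 in the old libraries. Its old libraries were widely spread but all lower (log2 fold change -0.65 ± 0.14 at an adjusted p of 0.0122), and the adjusted p was 0.0503 without young 2. Dnajb2, a neuronal J-domain protein mutated in distal motor neuropathy, fell from 5150.4 ± 353 to 4178 ± 243 (log2 fold change -0.30 ± 0.08 at an adjusted p of 0.0235). Its adjusted p was 0.0603 to 0.0903 without each of young 2, young 3 and old 1. Dnaja3, of mitochondria, fell from 3354 ± 37.8 to 2739.7 ± 186 (log2 fold change -0.29 ± 0.07 at an adjusted p of 0.018), and the adjusted p was 0.0516 to 0.0674 without each young library.

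Among J-domain proteins of vesicle traffic 2 of 3 fell (18.7% over all tested genes). All 3 were lower in every old library than in any young one (26.3% over all tested genes). Dnajc5, cysteine string protein, guards the release machinery on synaptic vesicles and had the highest level per kilobase of coding sequence among Hsp40 genes (18647 in young and 15635 in old nerves). That rank depends on the divisor, because only 594 of the 6578 nucleotides of its transcript are coding. Levels per kilobase of whole transcript were not ranked. Dnajc5 had 11469, 10884 and 10876 in the young and 8744, 9170.1 and 9947 in the old libraries. It fell (log2 fold change -0.26 ± 0.07 at an adjusted p of 0.0331). Its adjusted p was 0.0794 to 0.108 without each library other than old 3. Dnajc13, which acts on endosomes, fell from 7388 ± 557 to 6029 ± 414 (log2 fold change -0.29 ± 0.08 at an adjusted p of 0.0329), and its adjusted p was 0.0838 to 0.114 without each of young 2, young 3, old 1 and old 2. Dnajc6, auxilin, which strips clathrin coats in nerve endings, was at 8294 ± 1186 in young and 6627 ± 893 in old nerves (adjusted p = 0.101). With length and GC trends removed none of the 3 passed. The sum of the 3 genes was 26016 to 27956 in young and 20180 to 23466 in old libraries, beside the lower neuronal marker sum given above.

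Of the rises, Dnajc4 (chr19:6987911-6992582) had 678, 686 and 692 in the young libraries against 952, 919 and 908 in the old ones. Both groups were tight and far apart (log2 fold change 0.43 ± 0.07 at an adjusted p of 0.00722). Dnajc8 (chr4:132535559-132553742), which is tied to splicing, had 2798, 2641 and 2745 in the young and 3694, 3407 and 3211 in the old libraries. It rose without overlap (log2 fold change 0.33 ± 0.07 at an adjusted p of 0.0137), with an adjusted p of 0.0509 to 0.0587 without each of young 2 and young 3. Dnajc9, a histone chaperone, rose from 1363 ± 29.8 to 1658 ± 104 (log2 fold change 0.28 ± 0.07 at an adjusted p of 0.0235), and Dnajc2, which acts at the ribosome, rose from 572 ± 17.7 to 692 ± 19 (log2 fold change 0.27 ± 0.08 at an adjusted p of 0.0364). Dnajc2 missed the threshold whichever library was left out (0.0541 to 0.124), and Dnajc9 had 0.0547 to 0.0882 without each young library and old 1.

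In the cytosol, Dnajb6, which keeps polyglutamine proteins from aggregating and carries the heat shock element shown above, had 2132, 2177 and 2238 in the young and 2633, 2533 and 2664 in the old libraries. All old libraries were higher (log2 fold change 0.26 ± 0.06 at an adjusted p of 0.0166), and the adjusted p was 0.0527 to 0.0635 without each young library. Dnajc7, which binds both Hsp70 and Hsp90, rose from 5941 ± 344 to 7098 ± 355 (log2 fold change 0.26 ± 0.07 at an adjusted p of 0.0309), and Dnajb4 rose from 2403 ± 52.4 to 2799.9 ± 151 (log2 fold change 0.22 ± 0.07 at an adjusted p of 0.0386). The adjusted p of Dnajc7 was 0.0636 to 0.114 without each of young 2, young 3, old 1 and old 2, and that of Dnajb4 was 0.0919 to 0.127 without each library other than old 3. Dnajb1, the main inducible J-domain partner of Hspa1a (chr8:83608175-83612653), had 1844, 2278 and 2194 in the young and 1594, 1792 and 1771 in the old libraries. All old libraries lay below the young ones, with an adjusted p of 0.0583 (log2 fold change -0.29 ± 0.10) that became 0.0307 without young 1 and 0.0412 in DESeq2. The other 21 Hsp40 genes that did not pass had log2 fold changes from -0.56 (Dnajc5b, 56.5 ± 17.7 in young nerves) to 0.32 (Dnajc17, 105 ± 6.14).

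**Figure D3:**
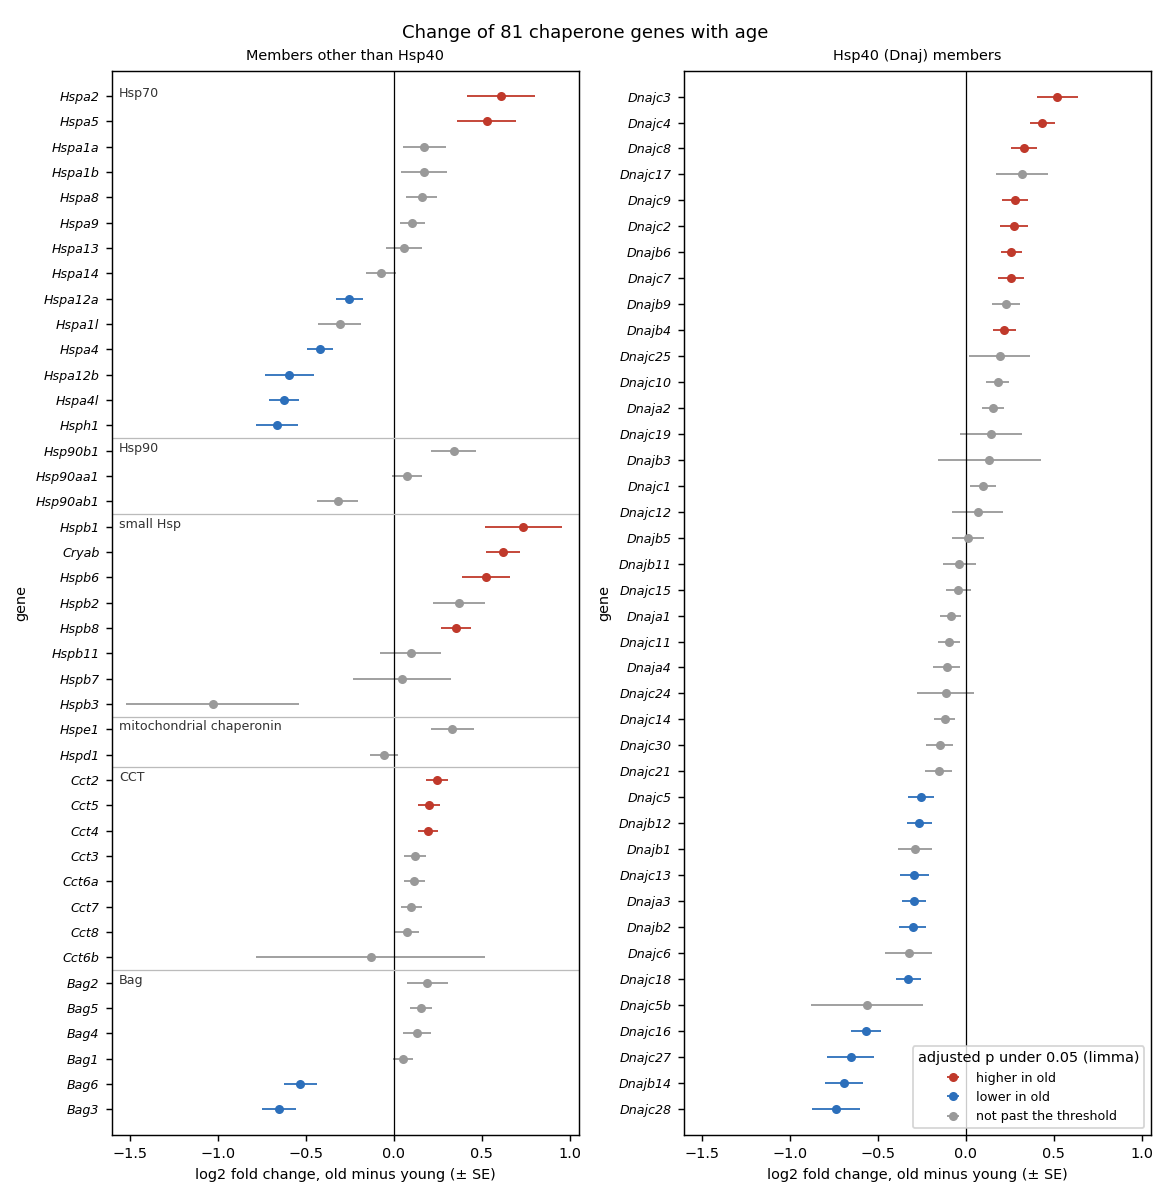
Log2 fold change (horizontal axis, old minus young, bars ± SE) of the 81 chaperone genes by family. Red and blue mark genes higher and lower in old nerves at an adjusted p under 0.05 in limma, and grey those that did not pass. Hspa4l, Hsph1, Bag3 and Bag6 lie left of zero, the 4 small heat shock rises right of it, and the 3 called CCT subunits between 0.19 and 0.25.

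As a class, the ER chaperones gave 2 rises and no fall in 8 genes (15.9% and 18.7% over all tested genes). Of the 8, 5 were higher in every old than any young library (25.5% over all tested genes). The sum over the 8 genes was 53624 to 58467 in young and 60999 to 83363 in old libraries, with old 2 the highest and old 3 the lowest of the old ones. Hspa5 (BiP, chr2:34772090-34776529), the Hsp70 of the ER, had 15204, 14633 and 16874 in the young and 21505, 28835 and 18081 in the old libraries. It rose 1.46-fold (log2 fold change 0.53 ± 0.17 at an adjusted p of 0.0461), with an adjusted p of 0.0753 to 0.136 without each library other than old 3. Dnajc3 (chr14:118937932-118981702), a J-domain partner of Hspa5 that also restrains kinases which slow translation under stress, had 5417, 5937 and 5889 in the young and 9219, 8800.1 and 6888 in the old libraries. Old 3 was again the lowest of the old libraries and still above the young range. Dnajc3 rose 1.44-fold (log2 fold change 0.52 ± 0.12 at an adjusted p of 0.0151) and also passed with length and GC trends removed (log2 fold change 0.55, adjusted p = 0.0179). Among the members with a promoter window, Hspa5, Dnajc3 and Hsp90b1 are the 3 found with the ER stress element. The mean of each was higher in old nerves, but Hsp90b1 did not pass in limma (adjusted p = 0.0769). Hspa5 did not pass with length and GC trends removed. Of all 81 chaperone genes, 46 had a positive log2 fold change. The log2 fold changes of the other ER members were 0.23 for Dnajb9, 0.18 for Dnajc10, 0.10 for Dnajc1, 0.06 for Hspa13 and -0.04 for Dnajb11, none of which passed. Without old 3 the class had 5 rises, and leaving out any of the other 5 libraries left 1, Dnajc3.

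Other genes of ER folding and the unfolded protein response had 7 rises and 3 falls among 27 tested, with a median log2 fold change of 0.26. The share that passed (37.0%) was near the 34.6% of all tested genes, with 25.9% higher beside 15.9% and 11.1% lower beside 18.7%. Without each single library the counts ran from 3 to 11 rises and from 2 to 4 falls, with 11 rises without old 3. Over all tested genes the higher share ran from 7.36% without young 2 to 17.3% without old 3. Ddit3, the transcription factor CHOP, rose from 1015 ± 47 to 1456 ± 74.5 (log2 fold change 0.52 ± 0.08 at an adjusted p of 0.00566). Pdia4, a disulfide isomerase, rose from 3309 ± 205 to 5014 ± 559 (log2 fold change 0.60 ± 0.10 at an adjusted p of 0.00699). Syvn1, the ubiquitin ligase that clears misfolded ER proteins, fell from 2302 ± 107 to 1612 ± 134 (log2 fold change -0.52 ± 0.08 at an adjusted p of 0.0067). The other rises were Pdia3 (log2 fold change 0.36), Sil1 (0.39), Sdf2 (0.28), Herpud1 (0.36) and Derl1 (0.37), and the other falls were the stress sensor Atf6 (-0.27) and its relative Atf6b (-0.55). The adjusted p of Atf6 was 0.0505 to 0.0676 without each young library. Xbp1, another regulator, did not pass (log2 fold change 0.30, adjusted p = 0.0993).

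CCT subunits gave 3 rises and no fall in 8 genes. Cct2 had 5666, 5254 and 5483 in the young and 6511, 6699 and 6252 in the old libraries. Cct2 rose (log2 fold change 0.25 ± 0.06 at an adjusted p of 0.0227), as did Cct4 (log2 fold change 0.19 ± 0.06 at an adjusted p of 0.0397) and Cct5 (log2 fold change 0.20 ± 0.06 at an adjusted p of 0.0428), and the groups did not overlap in any of them. The sum over the 8 genes was 44772 to 46721 in young and 50099 to 51522 in old libraries. Among the genes with a known coding length, which leaves out Cct6a, Cct8 had the highest level per kilobase (5355 in young and 5639 in old nerves) and a log2 fold change of 0.07 ± 0.07. Those of Cct3, Cct6a and Cct7 were 0.12, 0.12 and 0.10, none past the threshold although all old libraries were higher. Cct6b had a mean of 12.1 in young nerves, with a log2 fold change of -0.13 ± 0.65. The calls depended on which libraries entered. In limma 0 passed without young 1, young 2, young 3 or old 2 (2 or 3 of them at an unadjusted p under 0.05), 1, Cct2, without old 1, and all 3 without old 3. With length and GC trends removed the sign turned, to -0.01 for Cct2, -0.03 for Cct4 and -0.03 for Cct5.

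Prefoldin passes unfolded actin and tubulin to CCT, and tubulin cofactors finish the work. A list of 15 genes held these together with Pdcl, Pdcl3 and Txndc9. Of the 15, 7 rose and 1 fell, and the median log2 fold change was 0.25. Pfdn5 rose from 1841 ± 158 to 3029 ± 210.1 (log2 fold change 0.72 ± 0.09 at an adjusted p of 0.00477), Pfdn1 from 1618 ± 51.6 to 2322 ± 41.4 (log2 fold change 0.52 ± 0.06 at an adjusted p of 0.00464) and the tubulin cofactor Tbca from 803 ± 21.3 to 1118 ± 31 (log2 fold change 0.48 ± 0.07 at an adjusted p of 0.00584). Vbp1 (log2 fold change 0.33), Pdcl3 (0.35), Tbcb (0.25) and Tbce (0.30) made up the other rises, and Tbcel, which takes tubulin apart, fell (log2 fold change -0.32 ± 0.06 at an adjusted p of 0.00784). Without single libraries 3 to 8 of them were higher, the fewest without young 2 or young 3. With length and GC trends removed 2 were higher and 1 lower, and Pfdn1 and Tbca had adjusted p-values of 0.255 and 0.218.

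Mitochondrial chaperones gave 1 fall, Dnaja3, in 8 genes. Hspd1 and Hspe1 form the mitochondrial chaperonin and its lid. Hspd1 had 3317, 3107 and 3304 in the young and 2838, 3377 and 3156 in the old libraries, so the groups overlapped (log2 fold change -0.06 ± 0.08 at an adjusted p of 0.607). Hspe1 had 448, 400.1 and 474 in the young and 524, 627 and 515 in the old libraries, and its old libraries were all higher without passing (log2 fold change 0.33 ± 0.12 at an adjusted p of 0.0675). The import motor subunits Dnajc15 and Dnajc19 and the J-domain proteins Dnajc11 and Dnajc30 did not pass either (log2 fold changes -0.04, 0.14, -0.09 and -0.15). A list of 11 other mitochondrial folding and protease genes had 4 rises and 1 fall. They included the protease pair Clpp (log2 fold change 0.43 ± 0.09 at an adjusted p of 0.0108) and Clpx (log2 fold change 0.31 ± 0.07 at an adjusted p of 0.0141) and the exchange factor Grpel1 (log2 fold change 0.26 ± 0.06 at an adjusted p of 0.0199), together with Hscb (0.39) as a rise and Afg3l2 (-0.27) as the fall. Without single libraries 1 to 4 of that list were higher, the fewest without young 1 or young 2, where Clpx had adjusted p-values of 0.0513 and 0.0576. Grpel1 had 0.062 to 0.0722 without each young library, and the range for Hscb was 0.0594 to 0.0866 and for Afg3l2 0.0568 to 0.105 without each library other than old 3.

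The 8 cytosolic genes known to be induced by heat did not move as one. Cryab and Hspb1 rose, Hsph1 and Bag3 fell, and Hspa1a, Hspa1b, Hsp90aa1 and Dnajb1 did not pass. Of 5 genes of heat shock factors and their control, 1 rose and 2 fell. Hsf1, the main heat shock factor, fell from 1868 ± 114 to 1424 ± 101 (log2 fold change -0.39 ± 0.08 at an adjusted p of 0.0128), with an adjusted p of 0.0534 to 0.0563 without each of young 2 and young 3. Hsf4, a factor that governs crystallin genes in the lens, fell from 1246 ± 88.9 to 888 ± 182 (log2 fold change -0.51 ± 0.14 at an adjusted p of 0.0336), and its adjusted p was 0.0541 to 0.108 without each library other than old 3. Hsbp1, which binds and restrains Hsf1, rose from 3741 ± 228 to 4741 ± 255 (log2 fold change 0.34 ± 0.07 at an adjusted p of 0.0137), with 0.0561 without young 2. Hsf2 had a log2 fold change of -0.17 (adjusted p = 0.107) and Hsf5 of -0.04. Immediate early genes, which respond to handling of tissue, had 6 rises and 1 fall among 14, with sums of 10233 to 11513 in young and 13026 to 19314 in old libraries. Egr2, also listed as a Schwann cell marker and the 1 that rose there, was the largest part of each sum. It had 3440, 3466 and 3044 in the young and 4968, 6100 and 5244 in the old libraries. Without Egr2 the sums of the groups overlap, with old 1 just below young 1. Old 2 had the highest sum, and its part in the values of the inducible chaperones was not tested.

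Transcript length went with the direction of change. Genes that rose had a median transcript length of 1959 nucleotides, genes that fell 4618 and the others 2506, taking the longest protein-coding transcript of each in GENCODE M21. Spearman's rho between length and log2 fold change was -0.453 over 80 chaperone genes and -0.382 over 14896 tested genes (across genes, which share the 6 libraries and are not independent). After smooth trends in length and GC content had been subtracted from each library, 1 chaperone gene, Dnajc3, was higher and 15 were lower, where 10.2% and 12.7% of all tested genes with a length were. The falls of Hspa4, Hspa4l, Hsph1, Bag3, Dnaja3, Dnajb14, Dnajc16, Dnajc27 and Dnajc28 passed there too. Hsp90ab1, Hspa14, Dnajc21, Dnajc24, Dnajc30 and Hspb11 did not pass on the deposited values and were lower with the trends removed.

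**Figure D4:**
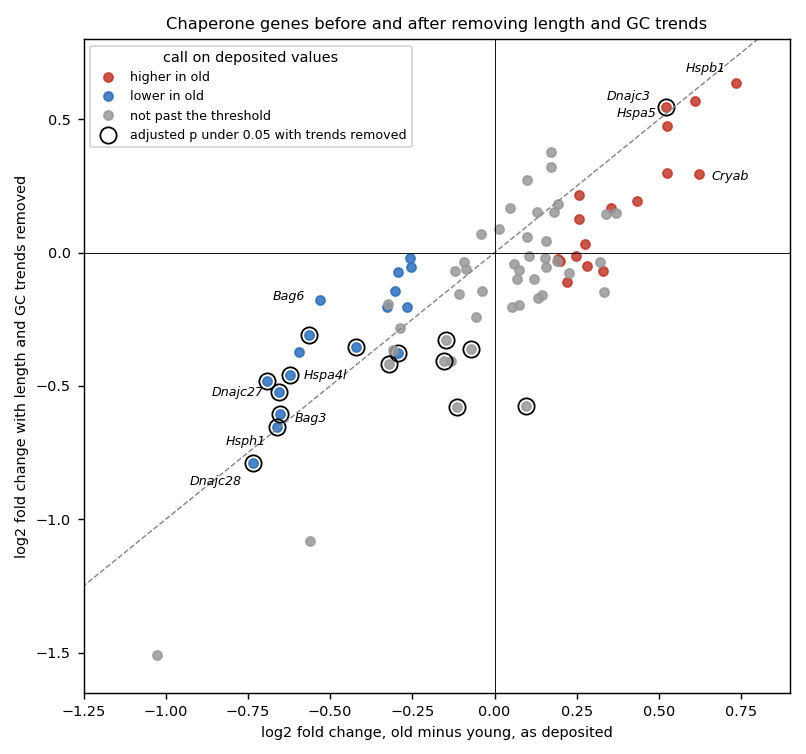
Log2 fold change (old minus young) of 80 chaperone genes as deposited (horizontal axis) and with trends in transcript length and GC content removed (vertical axis). Colours give the call on deposited values, black rings an adjusted p under 0.05 with trends removed, and the dashed line equal values. Among the red points Dnajc3 alone is ringed, and the ringed blue points include Hspa4l, Hsph1, Bag3 and Dnajc28.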

How the data were processed

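Members and gene lists were chosen with earlier results of these data known. The deposited table holds, per the file headers and its values, 6 library columns of a signal that the authors made by scaling read counts with a size factor for each library. Dividing a column by what 1 read is worth gave whole reads (within 0.1) for 99.92% to 99.97% of its values. The submitters' processing notes name the mm10 build, TopHat2, Partek and DESeq2, and the sources used here give no versions, annotation or read filters for them. Per the file headers, the deposited p-values, false discovery rates (no number in 342 rows) and fold change score come from the authors' own test. Columns headed CTRL were taken as young. The labels name a TruSeq RNA kit without its strand setting, so reads of overlapping genes cannot be separated.

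The test was limma 3.58.1 (R 4.3.3) on log2(value + 1), old against young, with empirical Bayes variances that follow a trend in mean level. It was two-sided, p-values were adjusted by Benjamini and Hochberg's method, and the threshold was 0.05. Genes kept by filterByExpr (minimum count 10, minimum total 15) numbered 15882. The added 1 shrinks changes of low genes. edgeR 4.0.16 and DESeq2 1.42.0 were run on the recovered reads. Length and GC trends (GENCODE M21, 93.8% of tested genes) were removed per library with mgcv 1.9.3. Other alternatives were scalings, pseudocounts, no filter, the replicate number as a block and libraries left out. No library repeats another, since chi-square over degrees of freedom between replicates was 19.3 to 67.2. On simulated counts for 15882 genes with 200 changed, limma recovered 26.9% of 1.5-fold, 67.2% of 2-fold and 78.8% of 4-fold changes, with 9 false calls among 124. Far fewer genes were changed there than the 34.6% that passed in the data. The recovery rates therefore do not measure the power of the comparison of young and old nerves.

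The text names all Hsp70, Hsp90, small heat shock, chaperonin and CCT members, the 8 largest called rises and falls of Hsp40 and of Bag, the highest gene per coding length in each group, and 3 genes per list. Levels per kilobase of coding sequence divide all normalised reads of a gene by its coding length alone. Genes with much non-coding transcript are therefore raised in these rankings. Values per library are given for the 12 smallest adjusted p-values and the heat-inducible genes. Other genes were named after their values were seen, and the classes by compartment were written after the table had been opened.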

Additional observations from a re-analysis of the deposited data

How the results depend on the processing

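TMM scaling, edgeR, DESeq2, the authors' false discovery rate, no filter and pseudocounts of 0.5 and 5 left 17 to 19 chaperone genes higher and 16 to 19 lower, beside 17 and 17. Higher calls numbered 27 with upper-quartile scaling, 3 with a replicate block (all tested genes 6.79%), 1 with length and GC trends removed, 0 without young 1 and old 2 together (5.15%, with 12 at an unadjusted p under 0.05 in limma), and 4 to 18 with single libraries left out. Lower calls numbered 9 with the block (10.3%), 5 without young 1 and old 2 together (5.94%), and 9 to 17 with single libraries left out. The direction of called genes turned only with length and GC trends removed, where the log2 fold change was -0.0127 for Cct2, -0.0252 for Cct4, -0.0304 for Cct5, -0.1099 for Dnajb4, -0.0704 for Dnajc8 and -0.0497 for Dnajc9, and Hspb11 was called lower at -0.5766. The cause was not tested. Without young 1 and old 2 each group held 2 mice. Same-numbered mice did not deviate together (correlations of deviations -0.29, -0.41 and -0.05), and no replicate correlated best with its own number. With 3 mice per group these correlations cannot exclude a batch shared by same-numbered libraries. Bag3, Dnajb14, Dnajc16, Hspa4l and Hsph1 passed under all 17 alternatives, and 30 of the 47 uncalled genes under none. Depth was similar in all libraries, and genes with means under about 50, such as Hspb3, Hspb7 and Cct6b, had the widest errors.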

Other observations

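Some chaperone genes sit next to each other. Hspd1 and Hspe1 start head to head on chromosome 1 and their annotated spans overlap, but their log2 fold changes were -0.06 and 0.33. Hspb2 and Cryab overlap on opposite strands of chromosome 9, with log2 fold changes of 0.37 and 0.62, and reads in the overlap cannot be assigned to 1 of the genes where strand is not known. On chromosome 17, Hspa1l lies beside Hspa1a on the opposite strand and was at -0.31, where Hspa1a was at 0.17 and Hspa1b at 0.17.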
